A study of Homo sapiens with 3 samples.

Results

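The miR-25 and miR-92 seed family was taken as hsa-miR-92a-3p, hsa-miR-92b-3p and hsa-miR-25-3p, chosen by name because they share a seed and come from 3 kinds of locus. All 3 were among the 1149 mature miRNAs measured, and all 3 passed a mean of 10 rpm (reads per 1000000 reads of a library's total), as did 208 miRNAs in all. The cells were clones of CAL-27, an established line grown from a human tongue squamous carcinoma, with 1 small RNA library in each of 3 groups. CC was untreated. The library labelled Mock was made, as the series' design text has it, from cells exposed once to 2 Gy of X-rays. RR, the radioresistant group, had 2 Gy each day for 2 cycles of 5 days, and 2 weeks of recovery followed each cycle before single cells were grown into clones. The labels do not say how many clones a library held, and their treatment tags (IR on Mock, Gy2 on RR) do not settle which of these libraries is which, so directions refer to the libraries as labelled.

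A miRNA is a short RNA cut from one arm of a hairpin, and it guides Argonaute to messenger RNAs that pair with its seed, the bases near its 5′ end. miRNAs with the same seed can therefore bind largely the same sites. This family is best known from proliferating and tumour cells: miR-92a-3p belongs to the oncogenic miR-17-92 cluster and to its paralogue on the X chromosome, miR-25-3p belongs to the miR-106b-25 cluster, and miR-92b-3p has a locus of its own. The pro-apoptotic protein BIM and the ubiquitin ligase subunit FBXW7 are among the targets reported for its members.

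The mature sequences are shown because they define the family and because the members differ in base composition, on which some of the results bear. They are from RefSeq (GRCh38.p14), 5′ to 3′, with the seed (bases 2 to 8) in capitals, and the 3 members are followed by the only other listed miRNAs with this seed.
miR-92a-3p: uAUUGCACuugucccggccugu
miR-92b-3p: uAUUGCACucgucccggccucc
miR-25-3p: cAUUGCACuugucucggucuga
miR-32-5p: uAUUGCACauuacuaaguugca
miR-363-3p: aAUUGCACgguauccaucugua

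The members were alike over most of their length, whereas miR-32-5p and miR-363-3p shared little with them beyond the seed. Counted from 1 at the 5′ end, with the base of miR-92a-3p first, miR-92b-3p differed from miR-92a-3p at 3 of 22 positions, U10C, G21C and U22C. miR-25-3p differed from miR-92a-3p at 4 positions, U1C, C14U, C18U and U22A. Between miR-92b-3p and miR-25-3p 6 positions differed. miR-32-5p differed from miR-92a-3p at 11 positions and miR-363-3p at 12. No listed miRNA lay within 2 mismatches of any member. Nothing is given in the sources used here on reads that fit more than 1 miRNA. GC content was 63.6% in miR-92b-3p, 54.5% in miR-92a-3p, 50.0% in miR-25-3p, 40.9% in miR-363-3p and 31.8% in miR-32-5p.

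The members come from 4 hairpins on 4 chromosomes. The sequence of miR-92a-3p stands on chr13:91351361-91351382 (plus strand), in MIR92A1, which overlaps an exon of the host transcript MIR17HG, and on chrX:134169544-134169565 (minus strand), in MIR92A2. The mature RNA is the same from both, so its reads cannot be divided by sequence. miR-25-3p lies on chr7:100093571-100093592 (minus strand), in MIR25, inside an intron of MCM7, a subunit of the replicative helicase. MIR93 and MIR106B sit in MCM7 introns too, and the 3 hairpins span 515 bases. miR-92b-3p lies on chr1:155195237-155195258 (plus strand), in MIR92B, 316 bases from THBS3 and within an exon of the noncoding AC234582.1 (GENCODE 29).

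Reads per library came to between 10473400 and 10769990 by the total that the scale implies, and those of the listed miRNAs made up 16.3% of it in CC, 23.2% in Mock and 20.5% in RR. With 1 library per group there is no replicate check and no p-value. Intervals are at the 95% level and cover counting error only, with PCR copies counted as separate reads. Over the 208 miRNAs the median log2 ratio of (rpm + 1) was 0.36 in RR over CC, 0.28 in Mock over CC and 0.06 in RR over Mock, and those medians are the level against which ratios on this scale are read. Squamous epithelial markers, a sum of 5 miRNAs led by miR-205-5p, summed to 37902 rpm for CC, 28369 for Mock and 44137 for RR, with none at 0. The low sum in Mock was that of miR-205-5p, at 25945, 14174 and 29651 rpm in the same order. On the rpm scale the other 4 markers were higher in Mock than in CC, but miR-203a-3p barely so, with 246 reads in CC and 252 in Mock. The log2 ratios Mock over CC of miR-200c-3p, 0.25, and miR-31-5p, 0.29, lay next to the median of all miRNAs. miR-141-3p, at 16.6 and 34.4 rpm, was just past 2-fold, with a log2 ratio of 1.01. Red blood cell markers, given here since red cells are also rich in miR-92a-3p and miR-25-3p, summed to 9.47 rpm for CC, 408 for Mock and 12.2 for RR. Nearly all of that was miR-486-5p, at 398 rpm in Mock. miR-451a stood at 0.743, 7.71 and 0.764 rpm in CC, Mock and RR, and miR-144-3p and miR-144-5p had 0 reads in CC and RR and 26 and 2 in Mock. The part of red cell RNA in the Mock values was not tested. Markers of white blood cells (3 of 4 listed) were low but highest in Mock, at 0.0929 rpm in sum for CC, 1.975 for Mock and 0.0955 for RR. The CC and RR sums lie below the level of 3 reads. Those of fibroblasts (3 of 4 listed) stayed between 5.64 and 6.49 rpm. Muscle markers (4) came to 341 rpm for CC, 345 for Mock and 409 for RR, most of it miR-1-3p, whereas miR-206 stood at 1.76, 25.5 and 3.63 rpm and so was highest in Mock. Endothelial markers (2) came to 55.1, 66.9 and 81.9 rpm.

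miR-92a-3p made up most of the family and, on the rpm scale, was nearly level between libraries. It stood at 12959 rpm in CC (95% Poisson interval 12891 to 13027), 12318 in Mock (12251 to 12385) and 13443 in RR (13373 to 13514). By level it was the 2nd most abundant of the listed miRNAs in CC, the 7th in Mock and the 4th in RR. RR over CC was 1.04-fold (1.03 to 1.05), a log2 ratio of 0.05 that was higher than that of 31 of 208 miRNAs. The ratio Mock over CC stood at 0.951-fold (0.943 to 0.958), that of RR over Mock at 1.09-fold (1.08 to 1.10). The 3 intervals of the level do not overlap, but the highest was only 1.09-fold the lowest, and each direction rests on the scale or on GC content. When values were taken as shares of miRNA reads, RR over CC was 0.822-fold and Mock over CC 0.667-fold. With median-ratio scaling Mock over CC was 0.771-fold, so miR-92a-3p was not level in Mock on these scales. With a linear GC trend removed, Mock over CC turned to 1.04-fold and RR over Mock to 0.990-fold.

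miR-92b-3p was the member that separated the libraries furthest, highest in RR and lowest in Mock. Its level was 1313 rpm in CC (1291 to 1335), 855 in Mock (837 to 873) and 1713 in RR (1688 to 1738). RR over CC was 1.30-fold (1.28 to 1.33) and Mock over CC 0.651-fold (0.634 to 0.669). RR over Mock was 2.00-fold (1.95 to 2.06), with a log2 ratio of 1.00 that was higher than that of 191 of 208 miRNAs. In the RR over CC comparison the log2 ratio of miR-92b-3p, 0.38, lay next to the median of all miRNAs, and with median-ratio scaling the ratio was 1.00-fold.

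miR-25-3p had another order, highest in Mock and, on the rpm scale, lowest in CC. It stood at 1119 rpm in CC (1099 to 1139), 1609 in Mock (1585 to 1634) and 1272 in RR (1250 to 1293). Mock over CC was 1.44-fold (1.41 to 1.47), RR over CC 1.14-fold (1.11 to 1.16) and RR over Mock 0.790-fold (0.772 to 0.808). Under each of the 3 other library scalings RR over CC of miR-25-3p turned to between 0.871-fold and 0.912-fold, which put RR lowest. Taken as shares of miRNA reads, Mock over CC came to 1.01-fold for miR-25-3p and 0.457-fold for miR-92b-3p. miR-25-3p thus lay below miR-92b-3p in CC and RR and above it in Mock, and both lay far below miR-92a-3p in each library.

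**Figure D1:**
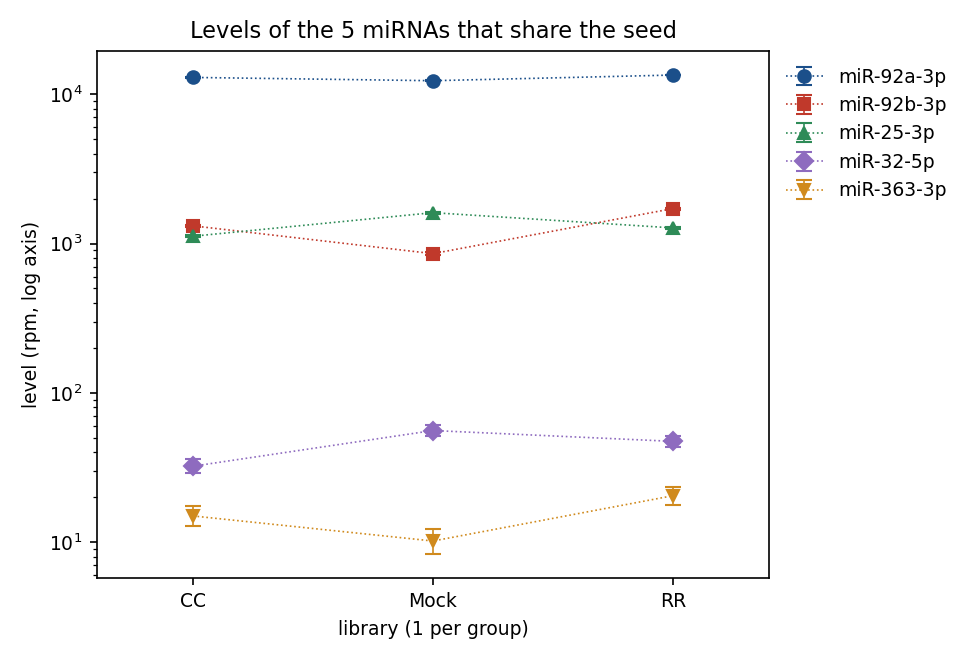
Level of each miRNA with the family's seed in the CC, Mock and RR libraries, in rpm on a log axis; bars are 95% Poisson intervals, dotted lines only join points of 1 miRNA, and each group has 1 library. miR-92a-3p stays between 12318 and 13443 rpm, miR-92b-3p is lowest and miR-25-3p highest in Mock, and miR-32-5p and miR-363-3p lie below 60 rpm throughout.

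Read by the 2-fold rule used across all miRNAs (a log2 ratio at or past 1 either way), the family was mostly within the range of the other miRNAs. In RR over CC 0 of 3 members passed, beside 0.962% of all 208 miRNAs that were higher and 0.481% that were lower. In Mock over CC 0 of 3 passed, beside 12.0% higher and 3.85% lower. As shares of miRNA reads 1 of 3 did, miR-92b-3p, which was lower with a log2 ratio of -1.13. On that scale 31 of all 208 miRNAs were lower and 7 higher. In RR over Mock 1 of 3, miR-92b-3p, passed as higher, beside 8.17% of all miRNAs that were higher and 4.81% lower. That call sits on the threshold: the log2 ratio of miR-92b-3p was 0.92 with median-ratio scaling, 0.99 with a pseudocount of 10 rpm and 0.58 with a linear GC trend removed, all under 1. It was 1.03 on a total without the 10 most abundant miRNAs, 1.18 as shares of miRNA reads and 1.00, just past the threshold, with a pseudocount of 0.1 rpm. The median log2 ratio over the 3 members was 0.18 in RR over CC, -0.07 in Mock over CC and 0.13 in RR over Mock, against 0.36, 0.28 and 0.06 for all miRNAs. The comparisons share libraries, so their values are not independent of each other.

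Summed over the 3 members the family stood at 15391 rpm in CC (15317 to 15465), 14782 in Mock (14709 to 14855) and 16428 in RR (16351 to 16506). RR over CC of that sum was 1.07-fold (1.06 to 1.07), Mock over CC 0.960-fold (0.954 to 0.967) and RR over Mock 1.11-fold (1.10 to 1.12). With the GC trend removed the last 2 turned to 1.05-fold and 0.997-fold. Since miR-92a-3p dominates the sum, it says little of the others: without miR-92a-3p Mock over CC was 1.01-fold and RR over CC 1.23-fold. The family took 9.47% of the miRNA reads in CC (exact binomial interval 9.42% to 9.51%), 6.38% in Mock (6.35% to 6.41%) and 8.01% in RR (7.97% to 8.05%). As a share of the pool it was thus largest in CC and smallest in Mock.

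The make-up of the family differed between libraries, and these ratios do not depend on how a library is scaled. Of the family's reads miR-92a-3p gave 84.2% (CC), 83.3% (Mock) and 81.8% (RR). miR-92b-3p gave 8.53% in CC (8.39% to 8.67%), 5.78% in Mock (5.67% to 5.90%) and 10.4% in RR (10.3% to 10.6%). miR-25-3p gave 7.27% in CC (7.15% to 7.40%), 10.9% in Mock (10.7% to 11.0%) and 7.74% in RR (7.61% to 7.87%). Against CC, the Mock library thus held relatively more miR-25-3p and less miR-92b-3p, and RR held more of miR-92b-3p.

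Set against miR-92a-3p, miR-92b-3p had 0.101 reads per read in CC (0.0995 to 0.103), 0.0694 in Mock (0.0679 to 0.0709) and 0.127 in RR (0.126 to 0.129). The ratio was 1.26-fold higher in RR than in CC (Woolf interval 1.23 to 1.29) and 1.84-fold higher in RR than in Mock (1.79 to 1.89). miR-25-3p had 0.0863 reads per read of miR-92a-3p in CC, 0.131 in Mock and 0.0946 in RR. It was 1.51-fold higher in Mock than in CC (1.48 to 1.55) and 1.10-fold higher in RR than in CC (1.07 to 1.12). The widest shift was between the members that are not miR-92a-3p. miR-25-3p had 0.852 reads per read of miR-92b-3p in CC (0.832 to 0.873), 1.88 in Mock (1.84 to 1.93) and 0.742 in RR (0.726 to 0.759), which made Mock over CC 2.21-fold (2.13 to 2.29) and RR over Mock 0.394-fold (0.381 to 0.408).

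**Figure D2:**
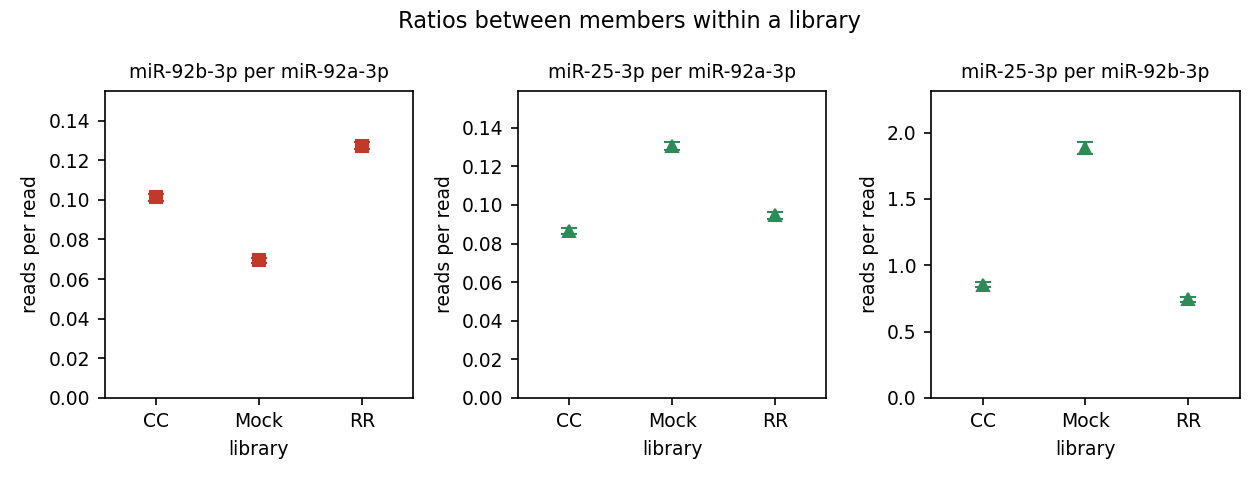
Reads of one member per read of another in the CC, Mock and RR libraries, with 95% exact binomial intervals and axes from 0. miR-92b-3p per miR-92a-3p runs from 0.0694 in Mock to 0.127 in RR, and miR-25-3p per miR-92b-3p is 1.88 in Mock, against 0.852 in CC and 0.742 in RR.

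Ratios to the Mock library moved with GC content over all 208 miRNAs, and the members are spread along that trend. For each 10 percentage points of GC the fitted log2 ratio fell by 0.29 for Mock over CC and was 0.31 higher for RR over Mock, while for RR over CC the slope was 0.02. The Spearman correlation across miRNAs, which are not independent replicates, was -0.55, 0.60 and 0.05 in the same order. miR-92b-3p is richer in GC than 174 of the 208 miRNAs. Its log2 ratio Mock over CC, -0.62, lay 0.48 under the value fitted at its GC content, -0.13. miR-25-3p, at 0.52, lay 0.27 above its fitted value of 0.26, and miR-92a-3p, at -0.07, lay 0.20 under its fitted 0.13. Removing the trend brought the shift of miR-25-3p per miR-92b-3p, Mock over CC, from 2.21-fold to 1.68-fold, and that of miR-92b-3p per miR-92a-3p, RR over Mock, from 1.84-fold to 1.51-fold. For RR over CC, where the slope was near 0, the latter ratio stayed at 1.24-fold. How much of the Mock values is due to GC content was not tested beyond this linear fit.

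**Figure D3:**
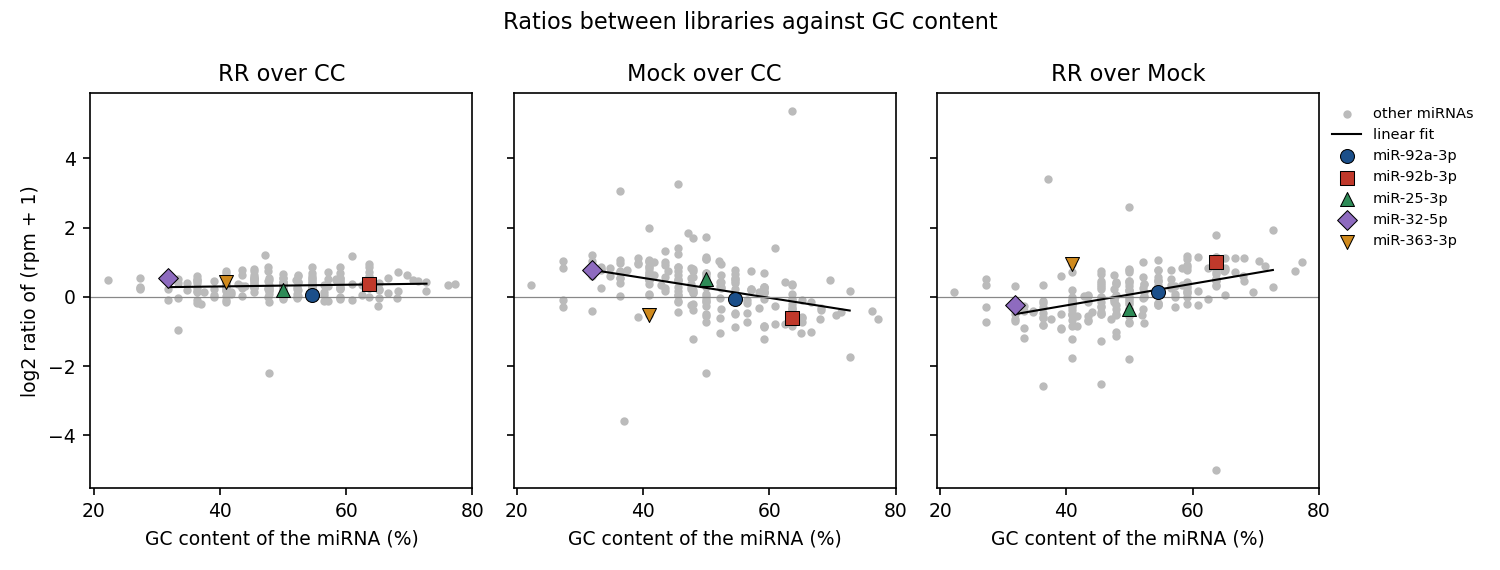
Log2 ratio of (rpm + 1) between libraries against the GC content of each of the 208 miRNAs averaging at least 10 rpm (grey), with the linear fit drawn over 31.8% to 72.7% GC and the 5 miRNAs with the family's seed marked. The fit is flat for RR over CC and sloped in both comparisons with Mock, where miR-92b-3p and miR-363-3p lie under it for Mock over CC and above it for RR over Mock.

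The other miRNAs with this seed were a small part of it. miR-32-5p, from an intron of TMEM245 on chromosome 9, stood at 32.2 rpm in CC (28.9 to 35.8), 55.9 in Mock (51.5 to 60.5) and 47.3 in RR (43.2 to 51.6). Its ratios to CC were 1.73-fold in Mock (1.52 to 1.99) and 1.47-fold in RR (1.28 to 1.69), so on the rpm scale its order was that of miR-25-3p. As shares of miRNA reads miR-32-5p was lowest in CC, whereas miR-25-3p was lowest in RR. At a GC content of 31.8%, the log2 ratio Mock over CC of miR-32-5p, 0.776, lay next to its fitted value of 0.782. miR-363-3p, which shares the X-chromosome transcript with MIR92A2, stood at 14.9 rpm in CC (12.7 to 17.4), 10.2 in Mock (8.33 to 12.3) and 20.4 in RR (17.8 to 23.4). RR over Mock was 2.01-fold (1.59 to 2.56) and 0.94 on the log2 scale with the pseudocount, and Mock over CC was 0.679-fold (0.528 to 0.872). Its order was that of miR-92b-3p. The GC content of miR-363-3p is 40.9%, and its log2 ratio Mock over CC, -0.52, lay 1.04 under the value fitted there. Together both gave under 1% of the reads with this seed, 0.376% for miR-32-5p and 0.0684% for miR-363-3p in Mock. miR-367-3p, which has the same seed, was not analysed here.

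The opposite arms name their hairpin by sequence, also for miR-92a, though they do not divide the reads of its 3p arm between loci. By reads the 3p arm is the main product of the hairpins of miR-92b and miR-25, which are printed here, 5p arm first, with both mature arms in capitals.
MIR92B, chr1:155195177-155195272, plus strand: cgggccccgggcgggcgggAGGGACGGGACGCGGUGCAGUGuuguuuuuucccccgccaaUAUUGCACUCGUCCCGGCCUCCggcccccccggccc
MIR25, chr7:100093560-100093643, minus strand: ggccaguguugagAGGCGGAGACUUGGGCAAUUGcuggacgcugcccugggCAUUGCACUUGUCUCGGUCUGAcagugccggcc

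For miR-92b both arms had the same order of libraries. miR-92b-5p had 69 CC reads, 31 Mock reads and 99 RR reads, or 6.41, 2.92 and 9.45 rpm. RR over Mock was 3.24-fold (2.15 to 5.02), Mock over CC 0.455-fold (0.288 to 0.705) and RR over CC 1.48-fold (1.07 to 2.04). The 3p arm had 205 reads per read of the 5p arm in CC (162 to 263), 293 in Mock (206 to 432) and 181 in RR (149 to 223). Those intervals overlap, while directly compared RR over Mock was 0.618-fold (0.413 to 0.926). Both arms are rich in GC, 72.7% in miR-92b-5p, and miR-92b-5p, with a mean of 6.26 rpm, is not among the 208 miRNAs.

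For miR-25 the arms parted. miR-25-5p stood at 24.7 rpm in CC (21.8 to 27.8), 28.8 in Mock (25.6 to 32.2) and 35.7 in RR (32.2 to 39.5), so that it was highest in RR and not in Mock. RR over CC was 1.45-fold (1.23 to 1.70) for the 5p arm and 1.14-fold for the 3p arm. The 3p arm had 45.3 reads per read of the 5p arm in CC (40.1 to 51.3), 55.9 in Mock (49.9 to 62.8) and 35.6 in RR (32.1 to 39.6). RR over CC of that ratio was 0.786 (0.670 to 0.922) and RR over Mock 0.637 (0.547 to 0.742). The 5p arm has a GC content of 57.1%, and its log2 ratio RR over Mock, 0.30, lay next to its fitted value of 0.29. That of the 3p arm, -0.34, lay 0.41 under its fitted 0.07. The part of GC content in this parting was not tested.

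For miR-92a the 5p arms name the hairpin, and nearly all their reads came from MIR92A1. miR-92a-1-5p had 1242 CC reads, 1644 Mock reads and 1270 RR reads, or 115, 155 and 121 rpm. miR-92a-2-5p, from the X-chromosome hairpin, had 1 read in CC and 0 in Mock and RR, where a floor of 3 reads, taken as the limit that a count of 0 allows, is 0.282 and 0.286 rpm. The share of miR-92a-3p from each hairpin cannot be read from this, since how often a hairpin's 5p arm is kept may differ between them. On the rpm scale miR-92a-1-5p was 1.34-fold higher in Mock than in CC (1.24 to 1.44), where miR-92a-3p was 0.951-fold. As a share of miRNA reads miR-92a-1-5p was lower in Mock, at 0.0668% against 0.0709% in CC. There were 112 reads of miR-92a-3p per read of miR-92a-1-5p in CC (106 to 119), 79.7 in Mock (75.9 to 83.7) and 111 in RR (105 to 117). RR and CC did not differ in this ratio beyond counting error, at 0.987-fold with an interval of 0.912 to 1.07.

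miR-92a-3p did not follow most of the measured miRNAs of its own cluster into the Mock library. The miR-17-92 cluster also makes miR-17-5p and miR-20a-5p, which share a seed and repress the cell cycle inhibitor p21, together with miR-18a and the miR-19 miRNAs. Of 10 further products listed, 5 averaged at least 10 rpm. miR-20a-5p was at 481 rpm for CC, 1049 for Mock and 560 for RR, while miR-17-5p was at 344, 513 and 433 rpm. Mock over CC was 2.18-fold for miR-20a-5p (2.11 to 2.26), 2.05-fold for miR-19b-3p (1.64 to 2.57), 2.00-fold for miR-18a-5p (1.56 to 2.59) and 1.49-fold for miR-17-5p (1.43 to 1.56). The exception was miR-18a-3p, at 0.930-fold (0.851 to 1.02). GC content was 39.1% in miR-20a-5p and miR-19b-3p, 43.5% in miR-18a-5p, 47.8% in miR-17-5p, 54.5% in miR-92a-3p and 56.5% in miR-18a-3p. With the GC trend removed, the log2 ratio Mock over CC was 0.06 for miR-92a-3p and 0.08 for miR-18a-3p. It was then 0.81 for miR-20a-5p, 0.74 for miR-18a-5p, 0.66 for miR-19b-3p and 0.51 for miR-17-5p. The part of GC content beyond this fit was not tested. On the log2 scale with the pseudocount 1 of the 5, miR-20a-5p, passed 2-fold as higher in Mock than in CC, 0 in RR over CC and 0 in RR over Mock. Over all 208 miRNAs 12.0% were higher in Mock over CC, 0.962% in RR over CC and 8.17% in RR over Mock. The call of miR-20a-5p was lost under the 3 other library scalings and without the GC trend, at log2 ratios of 0.61 to 0.82, and with a pseudocount of 0.1 rpm miR-19b-3p passed too, at 1.03. The median log2 ratio of the 5 was 0.93 for Mock over CC, 0.22 for RR over CC and -0.66 for RR over Mock. miR-92a-3p had 27.0 reads per read of miR-20a-5p in CC (26.2 to 27.7), 11.7 in Mock (11.5 to 12.0) and 24.0 in RR (23.4 to 24.7).

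The remaining 5 products of the cluster had few reads. miR-19a-3p was the most abundant of them, with 46 CC reads, 111 Mock reads and 34 RR reads, or 4.27, 10.4 and 3.25 rpm. The other 4 stayed between 0 and 23 reads in any library.

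miR-25-3p also parted from its abundant neighbours in MCM7, though less from miR-106b-3p once the GC trend was removed. miR-93-5p and miR-106b-5p carry the seed of miR-17-5p and likewise target p21. miR-93-5p had 854 rpm (CC), 836 (Mock) and 993 (RR), against miR-106b-3p at 799, 763 and 948 rpm. On the rpm scale both were therefore close in CC and Mock and highest in RR, unlike miR-25-3p. Under the 3 other library scalings their log2 ratios RR over CC turned to between -0.17 and -0.07. Mock over CC was 0.979-fold for miR-93-5p (0.951 to 1.01) and 0.955-fold for miR-106b-3p (0.926 to 0.984). For miR-106b-5p, which had few reads, it was 1.29-fold (1.02 to 1.65). With the GC trend removed, the log2 ratio Mock over CC of miR-25-3p was 0.52. That ratio was then 0.32 for miR-106b-3p, 0.14 for miR-106b-5p and 0.03 for miR-93-5p. miR-106b-5p was at 11.7, 15.1 and 15.3 rpm, far under its 3p arm, with 68.3 (CC), 50.4 (Mock) and 62.1 (RR) reads per read of the 5p arm. miR-25-3p had 1.31 reads per read of miR-93-5p in CC (1.28 to 1.35), 1.92 in Mock (1.88 to 1.98) and 1.28 in RR (1.25 to 1.31). Between RR and CC this ratio did not differ beyond counting error (0.977-fold, 0.941 to 1.01). Of the 4 products of the cluster other than those of miR-25, 3 passed the mean of 10 rpm and 0 of these 3 passed 2-fold in any comparison. With shares of 0.481% to 12.0% over all miRNAs, a count of 0 among 3 is near the background.

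**Figure D4:**
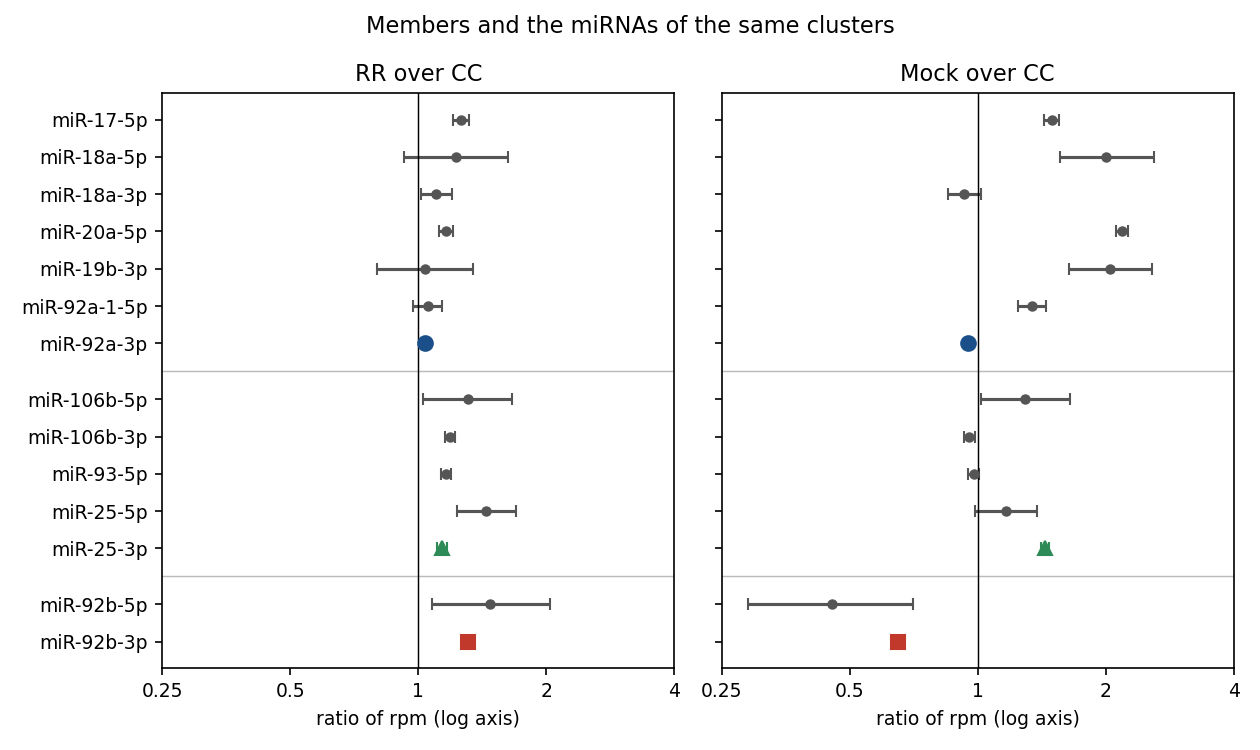
Ratio of rpm for RR over CC and Mock over CC on a log axis, with 95% intervals of counting error, for the miR-17-92 cluster (top), the miR-106b-25 cluster (middle) and miR-92b (bottom); coloured points are the 3 members. Mock over CC of miR-92a-3p (0.951) lies under that of miR-20a-5p (2.18) and of its own 5p arm (1.34), and that of miR-25-3p (1.44) above those of miR-93-5p (0.979) and miR-106b-3p (0.955).

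Of 9 products of the X-chromosome cluster besides those of miR-92a-2, 5 were listed and 1, miR-363-3p, reached a mean of 10 rpm. miR-106a-5p had 37 CC reads, 16 Mock reads and 54 RR reads, so that RR over Mock was 3.43-fold (1.93 to 6.41). miR-20b-5p had 31, 32 and 37 reads. miR-106a-5p is near-identical to the more abundant miR-17-5p, so its level is uncertain.

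The miRNAs whose pattern was most like that of a member were found among the 92 others averaging at least 100 rpm, by the distance between centred log2 values over the 3 libraries. For miR-92b-3p these were miR-339-5p (distance 0.10), miR-149-5p (0.13) and miR-615-3p (0.13), each lower in Mock and 2.18-fold, 2.22-fold and 2.25-fold higher in RR than in Mock. Their GC contents were 65.2%, 60.9% and 63.6%, close to that of miR-92b-3p. For miR-25-3p they were miR-200b-3p (0.05), miR-532-5p (0.09) and miR-92a-1-5p (0.09). miR-200b-3p, with a GC content of 36.4%, had 976 rpm (CC), 1420 (Mock) and 1160 (RR). For miR-92a-3p they were miR-93-5p (0.12), miR-125a-5p (0.12) and miR-23b-3p (0.15). With 3 libraries many miRNAs have like patterns by this measure, and it carries no test.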

How the data were processed

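Per the labels' protocols, small RNA was ligated to adapters, amplified, size-selected and sequenced on a NovaSeq. The submitters' processing notes name Bowtie and GRCh38 without role or version. Trimming, miRNA reference, mismatches and multi-mapping: not given in the sources used here. The authors' deposited values, which they call TPM, behave as RPM: all 1149 values of each library were whole multiples, within 0.01 of a read, of 1 step per library (100%), which gave the reads and the library totals. No count model was fitted, as each group has 1 library.

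Levels have exact Poisson intervals, ratios between libraries and shares Clopper-Pearson intervals, and ratios of ratios Woolf intervals. Log2 ratios use a pseudocount of 1 rpm. For counts, miRNAs needed 10 rpm on average and a 2-fold ratio. The GC alternative removes a linear trend from each log2 ratio, centred at the mean GC content of 50.0%. Sequences came from RefSeq (5 of 5 seed-sharing miRNAs and 4 of 4 opposite arms matched, with letters equal to the deposited ones), annotation from GENCODE 29.

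Named miRNAs are the members, their opposite arms, all listed miRNAs with the seed, cluster neighbours averaging at least 10 rpm, and per member the 3 nearest patterns among miRNAs averaging at least 100 rpm. miR-19a-3p, miR-106a-5p and miR-20b-5p fall outside this rule, as do the markers named singly; both were picked with their values in view. Members and lists were chosen with earlier results of these data known. The counting rules were tested on simulated Poisson reads with planted changes. Those reads held counting error only, with no other variation between libraries and no GC trend, so the test does not bear on either. Software was scipy 1.17.1, numpy 2.4.6 and pandas 2.3.3 under Python 3.11.15, with matplotlib 3.10.9 for plots.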

Additional observations from a re-analysis of the deposited data

How the results depend on the processing

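Library scaling multiplies all miRNAs of a library alike, so it moved each member's ratio and no ratio between members; only the GC correction moved the latter. Each setting is given for the family sum, miR-92a-3p, miR-92b-3p and miR-25-3p in that order. For RR over CC, 1.07, 1.04, 1.30 and 1.14 as reported, the ratios were 0.818, 0.795, 1.00 and 0.871 under median-ratio scaling, 0.856, 0.832, 1.05 and 0.912 on a total that leaves out the 10 most abundant miRNAs, 0.846, 0.822, 1.03 and 0.901 as shares of miRNA reads, and 1.06, 1.03, 1.28 and 1.14 with the GC trend removed. Of these 4, miR-92b-3p was the one at or above 1 under each of these settings. For Mock over CC, 0.960, 0.951, 0.651 and 1.44 as reported, they were 0.779, 0.771, 0.528 and 1.17, then 0.754, 0.746, 0.511 and 1.13, then 0.674, 0.667, 0.457 and 1.01, and 1.05, 1.04, 0.854 and 1.44 with the trend removed. For RR over Mock, 1.11, 1.09, 2.00 and 0.790 as reported, they were 1.05, 1.03, 1.89 and 0.747, then 1.14, 1.12, 2.05 and 0.808, then 1.26, 1.23, 2.26 and 0.892, and 0.997, 0.990, 1.49 and 0.791 with the trend removed. The sum without miR-92a-3p was 1.23 in RR over CC, 1.01 in Mock over CC and 1.21 in RR over Mock. Pseudocounts of 0.1 and 10 rpm moved no member's ratio beyond its counting interval. The cause of each shift other than the scale itself was not tested.

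The background counts of miRNAs past 2-fold, 2 higher and 1 lower for RR over CC, 25 and 8 in Mock over CC and 17 and 10 in RR over Mock, moved with most choices. In this order they were 0 and 2, 10 and 18, 12 and 10 with median-ratio scaling; 0 and 2, 10 and 19, 17 and 9 without the 10 most abundant; 0 and 2, 7 and 31, 25 and 8 as shares; 2 and 1, 17 and 4, 7 and 7 without the GC trend; and 0 and 1, 13 and 3, 8 and 8 with a pseudocount of 10 rpm. Filters gave 5 and 2, 44 and 13, 31 and 19 at a mean of 1 rpm, 6 and 2, 46 and 14, 33 and 24 with none, and 0 and 0, 11 and 1, 6 and 5 at 100 rpm. Thresholds gave 28 and 2, 70 and 26, 46 and 30 at 1.5-fold and 0 and 1, 3 and 2, 2 and 3 at 4-fold. A filter on CC and RR alone, added after seeing the data, gave 2 and 2. With 3 libraries no replicate could be left out. No paired analysis was possible because each group has 1 library and no test was run.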
